A study of Mus musculus with 6 samples.

Results

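The genes described here encode proteins that fill, dock, prime, fuse and retrieve synaptic vesicles at conventional presynaptic terminals. They form a list of 36 named genes, and the probe set with the highest mean over the 6 arrays stands for each gene, taken from those annotated with that single gene symbol. All 36 had such a probe set, out of 18193 genes represented in this way. The filter on dim values, a mean log2 intensity above 7 in either genotype, passed 35 of them, out of 11065 genes, and Sv2c was the member below it. The 36 genes had 94 probe sets in all.

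The arrays compared whole retinas of adult mice lacking Onecut2 (OC2-KO, 3 arrays) with those of adult wildtype littermates (OC2-WT, 3 arrays). Onecut2 is a transcription factor with a cut domain and a homeodomain that horizontal cells, the interneurons of the outer retina, need in order to form. The deficiency was present in the whole animal and throughout development, no treatment is described, and the study describes horizontal cells of these mice as strongly reduced and not absent. The exact age, strain and sex of the arrayed mice are not given in the sources used here. Whether every array stands for a different mouse is not said in the labels beyond the word littermates, and a p-value here therefore weighs the spread among arrays, part of which could be technical.

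Vesicle release rests on SNARE proteins. A vesicle SNARE of the VAMP family zips together with a syntaxin and SNAP-25 on the plasma membrane, complexins clamp and assist the complex, and synaptotagmins trigger fusion when calcium enters. The retina has both kinds of chemical terminal: amacrine cells release from conventional active zones with syntaxin 1, synapsins and complexins 1 and 2, whereas photoreceptors and bipolar cells release from ribbons, which use syntaxin 3 and complexins 3 and 4 and lack synapsin 1. Many other members, such as Snap25, Syp and Syt1, serve both kinds.

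The promoters of 3 of the genes that separate the terminal types are shown, because a shift between the types is the comparison for which the isoforms were singled out. RefSeq, assembly GRCm38.p6, gave a window from 250 bases before to 50 bases after a gene start for 31 of the 36 members, 41 windows in all. Both strands were searched for ATCAAT, the core bound by Onecut proteins, for ATCGAT, a word bound by proteins with a cut domain, for TCAGCACC, a part of the RE1 element bound by the repressor REST, for TGACGTCA, the cAMP response element, and for GGGGCGGGG, the GC box. Capitals mark these words, and no matches overlapped in the stretches printed. The Stx1a window lies at chr5:135023232-135023531 on the plus strand, that of Syn1 at chrX:20920869-20921168 on the minus strand and that of Stx3 at chr19:11819354-11819653 on the minus strand.
Stx1a: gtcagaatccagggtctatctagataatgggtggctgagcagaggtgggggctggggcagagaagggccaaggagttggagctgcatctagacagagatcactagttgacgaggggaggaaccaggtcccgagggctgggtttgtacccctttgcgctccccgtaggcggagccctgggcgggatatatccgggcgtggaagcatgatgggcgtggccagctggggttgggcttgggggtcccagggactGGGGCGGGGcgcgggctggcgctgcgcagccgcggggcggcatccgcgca
Syn1: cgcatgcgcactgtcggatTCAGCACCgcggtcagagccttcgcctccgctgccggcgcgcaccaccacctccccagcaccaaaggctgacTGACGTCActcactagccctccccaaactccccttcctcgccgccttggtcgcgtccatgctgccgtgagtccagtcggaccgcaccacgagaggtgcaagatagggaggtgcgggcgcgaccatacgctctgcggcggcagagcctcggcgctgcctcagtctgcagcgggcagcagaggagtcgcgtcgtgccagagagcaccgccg
Stx3: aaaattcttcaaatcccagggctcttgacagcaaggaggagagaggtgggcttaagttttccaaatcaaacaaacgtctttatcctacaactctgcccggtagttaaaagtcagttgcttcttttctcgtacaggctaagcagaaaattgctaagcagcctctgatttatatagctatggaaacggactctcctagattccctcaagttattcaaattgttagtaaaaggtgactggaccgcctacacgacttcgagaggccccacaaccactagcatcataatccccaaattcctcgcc

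Each cut-domain word was found in 1 of the members' 41 windows (2.44%). For ATCAAT, which 7.54% of all 32851 windows hold, it was that of Unc13b, and for ATCGAT, which 0.925% hold, it was a window of Syt2. The stretches around these matches are shown because they are the only matches of the members to these words, at chr4:43058807-43058836 for Unc13b and chr1:134646600-134646629 for Syt2, both on the plus strand. A match is a description of letters and not of a binding site.
Unc13b: ggcggagctgctATCAATcttggttattag
Syt2: tcgcgctcgcccATCGATcagcccctccct

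TCAGCACC was present in windows of Napa, Syn1 and Unc13a (7.32% of the members' windows and 1.65% of all windows). TGACGTCA was present in those of Napa, Sh3gl2 and Syn1 (7.32% and 1.79%). The GC box was the commonest of these words, in 11 windows (26.8% against 11.4% of all windows), among them those of Stx1a, Syp and Slc17a7. In the windows of the amacrine-type isoforms the dinucleotide CpG occurred 19 times for Stx1a, 24 times for Cplx1 and 33 times for Syn1. The ribbon-type windows held 8 for Stx3 and 11 for Cplx3, and the median over all windows was 7. Cplx2, also a complexin of conventional terminals, had 9 and so lay below Cplx3. With so few genes this is a description only.

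Some facts of the arrays bear on every value below. The median intensity ran from 94.9 to 110.3 and so few arrays limit the precision. Horizontal cell markers were lower in OC2-KO for 5 of 6 genes, with a median difference of -0.50. No probe set of the whole table passed Benjamini-Hochberg adjustment in limma, and 209 of 21176 had an unadjusted p under 0.05. Onecut2 probe sets were higher in OC2-KO, as in 1440005_at with log2 intensities of 6.61, 5.96 and 6.38 in OC2-WT against 8.87, 8.58 and 8.69 in OC2-KO. According to the study they lie near the 3′ end, and it proposes that leftover Onecut2 RNA is raised without functional protein. By qPCR the study found the 5′ coding sequence nearly undetectable. The probe sets thus split the arrays by genotype label but do not themselves show the loss of Onecut2. Arrays with the same number varied together. The arrays numbered 3 differed from the others in the 3′ to 5′ readings of Actb. The 3′ reading exceeded the 5′ reading by 2.95 and 3.39 (log2) there and by 0.71 to 1.41 on the other 4 arrays. The part of RNA quality in this was not tested. Sample titles of the arrays numbered 3 were also worded differently, and no label names a batch. The arrays numbered 3 differed in sex pattern too, with Xist at 14.53 in OC2-WT 3 and 7.16 in OC2-KO 3. The arrays numbered 1 were both low and those numbered 2 both high. In whole retina, fewer cells of a type and less RNA per cell cannot be told apart.

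Presynaptic genes of the OC2-KO retina stayed close to the wildtype level, and none passed the test. Of the 35 members tested, 0 had an adjusted p under 0.05 (0% of all genes), 0 had an unadjusted limma p under 0.05 (0.985% of all genes), and 0 had genotypes that did not overlap (3.78% of all genes, 1.83% lower and 1.95% higher). The difference between genotypes was under 0.1 on the log2 scale in 18 members and under 0.3 in 31, which is 88.6% of them against 86.0% of all genes. The median size of a difference was 0.10 for the members and 0.11 for all genes.

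These differences were estimated with limited precision. The intervals come from the fit without the array number as a block, so they leave out that arrays with the same number varied together. The 95% interval of a member reached from 0.46 to 1.00 on either side of its difference, with a median of 0.60, a 1.52-fold change. In 29 members the whole interval lay within a 2-fold change in either direction, and it reached past 2-fold for the other 6, namely Syn1, Syt2, Syt3, Syt4, Syt7 and Unc13b.

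More members were lower than higher. In OC2-KO, 24 were lower and 11 higher, so that 68.6% were lower against 51.2% of all genes, and the median difference was -0.058 against -0.0048. This lean rested on single arrays, because without OC2-WT replicate 3 or without OC2-KO replicate 1 it turned to 15 lower and 20 higher, with a median of 0.015. Taken between the OC2-KO and OC2-WT arrays of the same number, the median difference was -0.072, -0.034 and -0.012 for the numbers 1, 2 and 3. In all 3 numbers 7 members were lower, namely Unc13b, Rab3a, Rab3c, Syt3, Syt7, Syn1 and Syn3 (20.0% against 12.1% of all genes), and 2 were higher, Snap25 and Syt2 (5.71% against 10.9%).

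**Figure D1:**
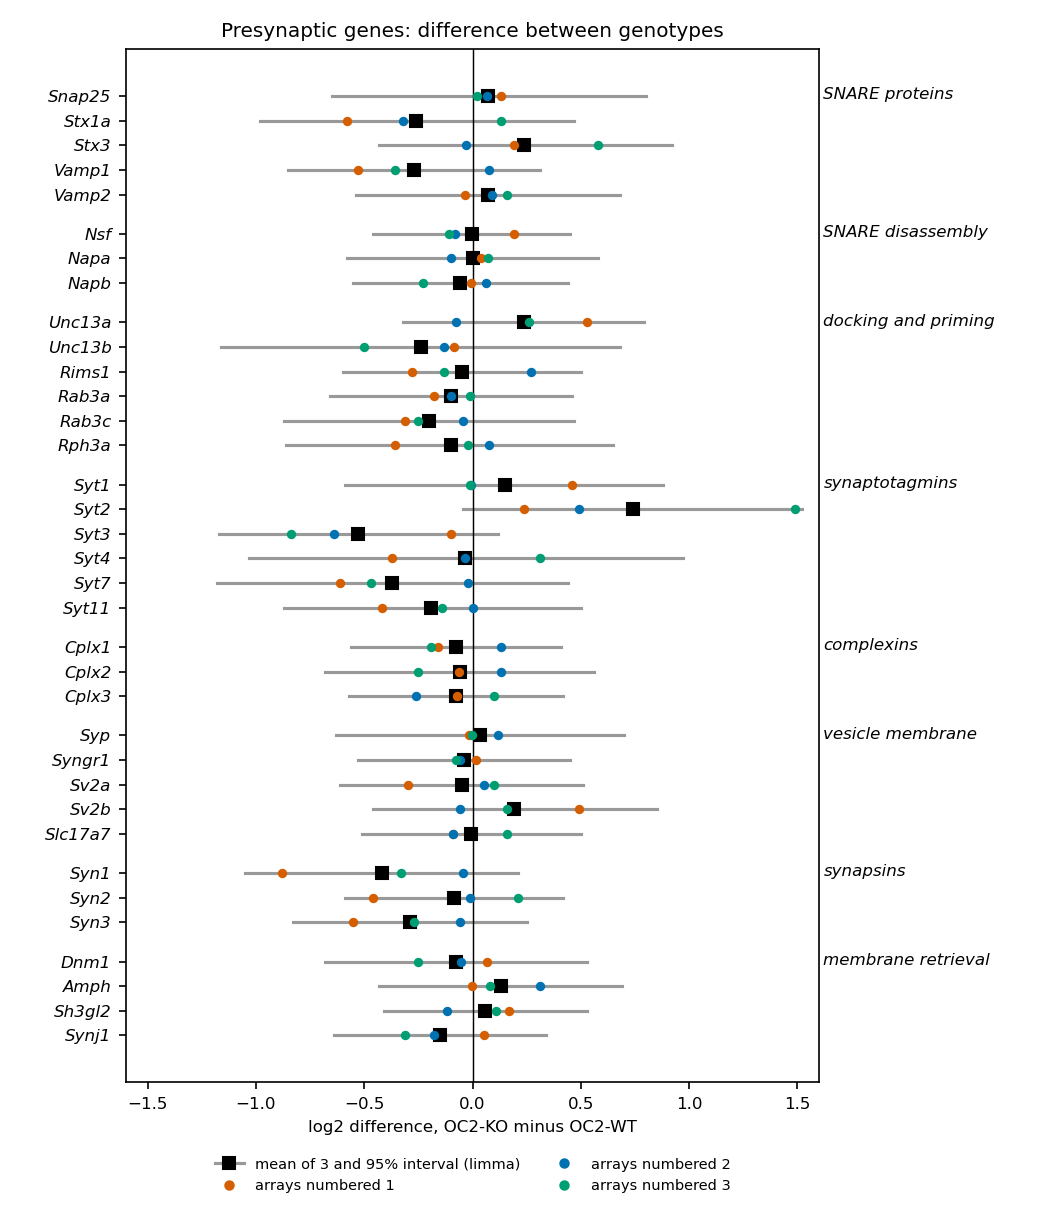
Log2 difference of OC2-KO minus OC2-WT (horizontal axis) for the 35 presynaptic genes tested, grouped by role; black squares are the means of 3 against 3 arrays, grey lines the 95% limma intervals, and coloured points the difference between the arrays of one number. Every interval includes 0, and the means run from -0.53 for Syt3 to 0.74 for Syt2.

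The SNARE genes themselves had a median difference of 0.072 and a range from -0.27 for Vamp1 to 0.24 for Stx3. Snap25, the plasma membrane SNARE shared by conventional and ribbon terminals, had log2 intensities of 14.59, 14.16 and 14.98 in OC2-WT against 14.72, 14.23 and 15.00 in OC2-KO. The genotypes overlapped completely, and the arrays numbered 2 were lowest in both. The difference was 0.072 ± 0.31 (SE, n = 3 per genotype), and it turned to -0.13 under quantile normalization. Vamp2, the main vesicle SNARE of central synapses, differed by 0.073 ± 0.26, with an interval from -0.54 to 0.68, and by -0.18 as the mean of its probe sets. Vamp1, its close relative, had 10.82, 10.94 and 10.99 in OC2-WT against 10.29, 11.02 and 10.63 in OC2-KO. One OC2-KO array was above all wildtype arrays and the other 2 were below them. The difference was -0.27 ± 0.25, with an interval from -0.85 to 0.31.

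Stx1a is the syntaxin of conventional terminals and Stx3 that of ribbons. Stx1a had log2 intensities of 9.00, 9.02 and 9.33 in OC2-WT against 8.42, 8.70 and 9.46 in OC2-KO. OC2-KO replicates 1 and 2 lay below every wildtype array and OC2-KO replicate 3 above them, so the genotypes overlapped. The difference was -0.26 ± 0.31, with an interval from -0.98 to 0.47 and an unadjusted limma p of 0.432. Stx3 had 13.90, 13.39 and 13.55 in OC2-WT against 14.09, 13.36 and 14.13 in OC2-KO. Its 2 highest arrays and its lowest were OC2-KO. The difference was 0.24 ± 0.29, with an interval from -0.43 to 0.92 and an unadjusted limma p of 0.421. Its other probe sets did not share one direction. The tested 1425536_at and 1426151_a_at gave -0.16 and -0.10, 1434559_at, below the filter, gave 0.21, and the mean of the 3 tested probe sets was -0.004.

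Synapsins, which tether vesicles to each other and to actin in the reserve pool, held the lowest median of all roles, at -0.29, with 3 of 3 lower. Syn1, absent from ribbon terminals, had 10.65, 10.69 and 10.62 in OC2-WT against 9.77, 10.65 and 10.29 in OC2-KO. The wildtype arrays lay within a narrow band (SD 0.035) and the OC2-KO arrays spread below it (SD 0.44), with OC2-KO replicate 2 inside the band. The difference was -0.42 ± 0.27, a level 1.34-fold lower, with an interval from -1.05 to 0.21 and an unadjusted limma p of 0.162. Syn3 showed the same layout of arrays, with 9.15, 9.24 and 9.30 in OC2-WT against 8.61, 9.19 and 9.03 in OC2-KO. OC2-KO replicate 2 alone reached the wildtype range, and the difference was -0.29 ± 0.23, with an interval from -0.83 to 0.25. Under quantile normalization the genotypes no longer overlapped for Syn1 and Syn3 (3.77% of all genes there), and neither reached an unadjusted p under 0.05. Syn2 differed by only -0.085 ± 0.21, and its within-number differences were -0.46, -0.013 and 0.21.

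Complexins, the small proteins that bind the assembled SNARE bundle, were close to the wildtype level in both terminal types. Cplx1, the conventional isoform, had 12.09, 12.12 and 12.34 in OC2-WT against 11.93, 12.24 and 12.15 in OC2-KO. Cplx3, the ribbon isoform, had 12.47, 12.84 and 12.55 in OC2-WT against 12.40, 12.58 and 12.66 in OC2-KO. The arrays of both genes interleaved, with OC2-KO replicate 1 the lowest in each. The differences were -0.074 ± 0.21 for Cplx1 (interval from -0.56 to 0.41) and -0.075 ± 0.21 for Cplx3 (interval from -0.57 to 0.42), and Cplx2 differed by -0.059 ± 0.26. All 3 were nominally lower, each within 0.1 of the wildtype level.

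**Figure D2:**
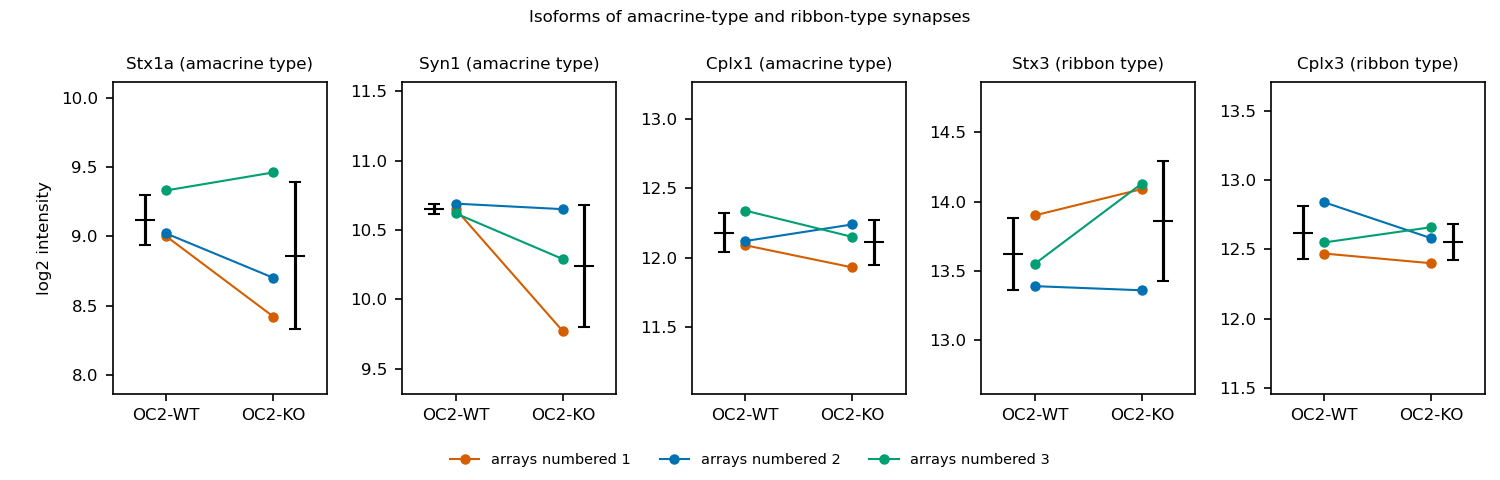
Log2 intensity (vertical axis, each panel spanning the same range around its own centre) of Stx1a, Syn1 and Cplx1 (amacrine type) and of Stx3 and Cplx3 (ribbon type) in OC2-WT and OC2-KO; points are single arrays, coloured lines join arrays of one number, and black bars are the mean and SD of 3. The OC2-KO arrays spread more widely than the wildtype arrays for Syn1 (SD 0.44 against 0.035) and overlap them in all 5 genes.

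Set against each other, the ribbon-type isoforms were somewhat higher relative to the amacrine-type ones in OC2-KO, and the genotypes overlapped. The change was smaller than the SD of the OC2-KO arrays and larger than that of the OC2-WT arrays. A probe set's brightness differs from gene to gene, so only the change of such a contrast between arrays can be read. The mean log2 intensity of Stx3 and Cplx3 minus that of Stx1a, Syn1 and Cplx1 was 2.61, 2.51 and 2.29 in OC2-WT (2.47 ± 0.16, SD) and 3.21, 2.44 and 2.76 in OC2-KO (2.80 ± 0.38, SD). OC2-KO replicates 1 and 3 were above all wildtype arrays and OC2-KO replicate 2 was below OC2-WT replicates 1 and 2. The contrast was 0.33 higher in OC2-KO, with within-number differences of 0.60, -0.067 and 0.47. It depended on single arrays, at 0.13 without OC2-KO replicate 1 and 0.51 without OC2-KO replicate 2, and on the processing, at 0.21 under quantile normalization and 0.20 with the mean of each gene's probe sets.

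The syntaxin and complexin pairs gave different values. The log2 ratio of Stx3 to Stx1a was 4.90, 4.37 and 4.22 in OC2-WT against 5.67, 4.66 and 4.67 in OC2-KO. OC2-KO exceeded OC2-WT in 3 of 3 numbers, by 0.76, 0.29 and 0.45, although the genotypes overlapped because OC2-WT replicate 1 exceeded OC2-KO replicates 2 and 3. The log2 ratio of Cplx3 to Cplx1 was 0.39, 0.72 and 0.22 in OC2-WT against 0.47, 0.34 and 0.51 in OC2-KO, a change of -0.001. Whether these pairs differ from each other was not tested.

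Markers of amacrine cells and of ribbon-bearing cells are given beside the isoforms. Those of horizontal cells, ganglion cells and Müller glia are set beside them for comparison. The mean of the amacrine-type isoforms differed by -0.54, -0.078 and -0.13 in the numbers 1, 2 and 3. By antibody staining the study found no significant change in amacrine cell counts. Of 10 amacrine markers tested, 8 were lower, against 51.2% of all genes, and Gad2 and Slc6a9 were not. The 10 markers had a median difference of -0.18, and their mean level was 10.19 to 10.40 in OC2-WT against 9.76 to 10.28 in OC2-KO. Its within-number differences were -0.45, -0.17 and 0.091, lowest in number 1 as for the isoforms. This was not particular to amacrine markers. Number 1 was also lowest for the mean of horizontal cell markers, at -1.07, -0.41 and -0.37, and of Müller glia markers, at -0.32, 0.12 and 0.15. For bipolar and ganglion cell markers number 3 was lowest, at -0.58 and -0.26. The bipolar value leaned on Gpr179, which was dim. Its log2 intensity was 8.14 in OC2-WT replicate 3 and 4.57 in OC2-KO replicate 3. The number order of the bipolar mean is therefore not read. The mean of the ribbon-type isoforms differed by 0.058, -0.14 and 0.34, and markers of the ribbon-bearing cells went both ways. Of 9 bipolar markers 8 were lower, against 51.2% of all genes, with a median difference of -0.31. The bipolar mean was 10.49 to 10.89 in OC2-WT against 10.07 to 10.47 in OC2-KO. Gpr179 weighed on this mean too, so the separation of these ranges is not read. Nominally higher were 6 of 6 rod markers, with mean levels of 13.99 to 15.14 in OC2-WT and 13.85 to 15.05 in OC2-KO. All 8 cone markers tested were higher, with a median difference of 0.35 and within-number differences of their mean of 0.53, 0.33 and 0.32. Of these 8 markers, 3 had an unadjusted limma p under 0.05 (0.985% of all genes). The mean level of the cone markers was 11.66 to 12.08 in OC2-WT against 11.99 to 12.39 in OC2-KO. None of these markers passed adjustment, and their part in the isoform values was not tested. The part of other cell types in the values of each marker was not tested either.

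The synaptotagmins held both the highest and the lowest difference among the members tested, and neither passed the test. Both genes lay near the filter of 7 and passed it through a single genotype. For Syt2 this was OC2-KO (mean 7.34 against 6.60 in OC2-WT), and for Syt3 it was OC2-WT (mean 7.38 against 6.85 in OC2-KO). Such a filter favours members that differ, so nothing is read from their rank. Neither was kept with the filter at 8. Syt2, a fast calcium sensor that marks some cone bipolar cells in mouse retina, had log2 intensities of 6.59, 7.06 and 6.15 in OC2-WT against 6.83, 7.55 and 7.64 in OC2-KO. In 3 of 3 numbers OC2-KO was the higher array, and OC2-WT replicate 2 lay between the OC2-KO arrays. The difference was 0.74 ± 0.33, a 1.67-fold higher level, with an interval from -0.042 to 1.52, an unadjusted limma p of 0.0603 and an adjusted p of 1.00. Its probe set was dim, so the fold is uncertain, and its other probe sets, 1420418_at and 1449866_at, lay below the filter with differences of -0.11 and 0.90. The number 3 pair contributed 1.49 and the others 0.24 and 0.49.

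Syt3, a synaptotagmin of high calcium affinity, had 7.47, 7.36 and 7.32 in OC2-WT against 7.36, 6.72 and 6.48 in OC2-KO. The wildtype arrays were tight, OC2-KO replicate 1 lay among them and the other OC2-KO arrays lay below. The difference was -0.53 ± 0.27, with an interval from -1.17 to 0.12 and an unadjusted limma p of 0.0938. Both Syt2 and Syt3 changed sides of an unadjusted 0.05 when the array number entered the fit as a block, to limma p-values of 0.0384 and 0.0413, with adjusted p-values of 0.999. Under the block 3.53% of all genes were on that side, against 5.71% of the members. They also did so without OC2-KO replicate 1, with differences of 1.00 and -0.78, and Syt2 did so without OC2-WT replicate 2, with a difference of 0.97.

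The synaptotagmins with bright probe sets were closer to the wildtype level. Syt1, the main calcium sensor for fast release, had 14.42, 14.24 and 15.02 in OC2-WT against 14.88, 14.23 and 15.01 in OC2-KO. The arrays of the numbers 2 and 3 were nearly identical between genotypes, the number 1 pair differed by 0.46, and the overall difference of 0.15 ± 0.31 turned to -0.037 under quantile normalization. Syt7, the sensor of slow and asynchronous release, had 10.93, 11.20 and 11.75 in OC2-WT against 10.31, 11.18 and 11.27 in OC2-KO. Here 3 of 3 numbers were lower, yet only OC2-KO replicate 1 fell outside the wildtype range, and the difference was -0.37 ± 0.35 with an interval from -1.18 to 0.44. Syt11, which does not bind calcium, differed by -0.19 ± 0.29. Syt4 differed by -0.033 ± 0.43, the widest error of the members, since both arrays numbered 3 were low at 11.11 and 11.41 against 11.98 to 12.42 on the other 4.

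Docking and priming genes were lower in 5 of 6, with a median of -0.10. Unc13b, the Munc13 priming protein whose promoter window held the ATCAAT word, had 11.74, 12.34 and 13.05 in OC2-WT against 11.66, 12.21 and 12.55 in OC2-KO. In both genotypes the array numbered 1 was the lowest and the array numbered 3 the highest, the number means spanned 1.10, and the difference between genotypes was -0.24 ± 0.39. Unc13a, its paralogue and the one member of this role that was nominally higher, had 7.78, 8.43 and 8.16 in OC2-WT against 8.31, 8.36 and 8.42 in OC2-KO. OC2-WT replicate 1 stood apart at the low end, and the difference was 0.24 ± 0.24 with an interval from -0.32 to 0.79. Rab3c, a vesicle GTPase, differed by -0.20 ± 0.28 and Rab3a, the main Rab3 of neurons, by -0.10 ± 0.24, both lower in 3 of 3 numbers and overlapping. Rph3a, the Rab3 effector rabphilin, differed by -0.10 ± 0.32, and Rims1, the active zone scaffold that binds Rab3, by -0.05 ± 0.23.

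Genes of vesicle membrane proteins were close to the wildtype level, with a median difference of -0.0078. Syp, synaptophysin, had 12.75, 12.50 and 13.23 in OC2-WT against 12.73, 12.62 and 13.23 in OC2-KO, and the within-number differences were -0.014, 0.12 and -0.0012. Slc17a7, the vesicular glutamate transporter of photoreceptors and bipolar cells, had 11.81, 11.67 and 11.86 in OC2-WT against 11.72, 11.58 and 12.02 in OC2-KO. In both genes the arrays of one number sat together whichever the genotype. The differences were 0.035 ± 0.28 for Syp and -0.0078 ± 0.21 for Slc17a7. Syngr1, synaptogyrin, differed by -0.04 ± 0.21 and Sv2a, the vesicle glycoprotein of most neurons, by -0.049 ± 0.24. Sv2b, a second form of that glycoprotein, differed by 0.19 ± 0.28, with OC2-KO replicate 1 the highest array at 14.51 and OC2-KO replicate 2 the lowest at 13.65.

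Sv2c was dim on every array and was not tested. Its log2 intensities were 6.04, 5.47 and 6.44 in OC2-WT against 3.21, 5.56 and 2.32 in OC2-KO. OC2-KO replicates 1 and 3 were far below the wildtype arrays, whereas OC2-KO replicate 2 lay among them. The means differed by -2.28, and without the filter limma gave an unadjusted p of 0.0399 and an adjusted p of 1.00. At such intensities log2 values of this array type spread widely, so the size of this difference is uncertain.

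The genes that take SNARE complexes apart were nearest to 0. Nsf, the ATPase of this step, had 13.52, 13.69 and 13.65 in OC2-WT against 13.71, 13.60 and 13.54 in OC2-KO, which gave a difference of -0.0011 ± 0.19 with an interval from -0.46 to 0.45. It was also the steadiest member across the numbers, which spanned 0.048. Its adaptors Napa and Napb, the alpha and beta SNAPs, differed by 0.0018 ± 0.25 and -0.058 ± 0.21, and the value of Napa turned below 0 under quantile normalization and median centring, at -0.01 and -0.0078.

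Genes of membrane retrieval went both ways. Dnm1, the neuronal dynamin that pinches off vesicles, differed by -0.078 ± 0.26, and Synj1, the lipid phosphatase of uncoating, by -0.15 ± 0.21. Amph, amphiphysin, differed by 0.13 ± 0.24 and Sh3gl2, endophilin A1, by 0.058 ± 0.20. All 4 intervals stayed between -0.68 and 0.69. The within-number differences of Synj1 were 0.052, -0.18 and -0.31, and no gene of this role was on one side of 0 in 3 of 3 numbers.

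Arrays of one number often lay together at an end of the range. Both arrays numbered 3 were the highest pair for 15 members, 42.9% against 15.5% of all genes, among them Snap25, Vamp2, Syt1, Syp, Slc17a7 and Dnm1. Both arrays numbered 2 were the lowest pair for 7, 20.0% against 12.3%, namely Snap25, Stx3, Vamp2, Syt1, Syp, Sv2b and Slc17a7.

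Other members kept a different order. Both arrays numbered 1 were the lowest pair for 10 members, 28.6% against 17.6% of all genes, among them Unc13b, Rph3a, Syt7 and all 3 complexins. Rab3a and Syt4 were the 2 members with both arrays numbered 3 at the low end, 5.71% against 16.8%, and Syt3 was the one with both arrays numbered 1 at the high end. Across single arrays, OC2-KO replicate 1 was the lowest of the 6 for 15 members, 42.9% against 24.1% of all genes, Syn1, Syn3, Vamp1 and Stx1a included. The mean of the rod markers followed the number order of Snap25 and Syt1, at 14.48, 13.99 and 15.14 in OC2-WT against 14.90, 13.85 and 15.05 in OC2-KO. The mean of the cone markers had the same order, at 11.83, 11.66 and 12.08 in OC2-WT against 12.36, 11.99 and 12.39 in OC2-KO. The part of photoreceptor RNA and of RNA quality in these orders was not tested.

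**Figure D3:**
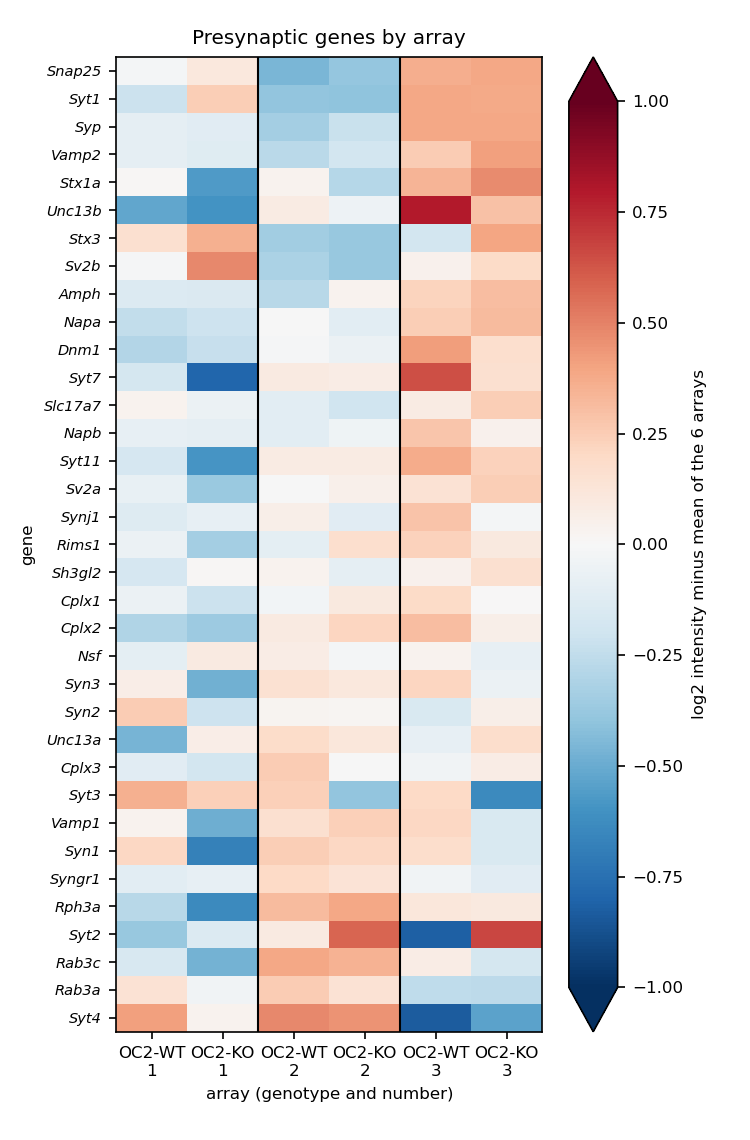
Log2 intensity of the 35 presynaptic genes tested on each array, as the deviation from the gene's mean over the 6 arrays (colour scale, clipped at -1 and 1), with arrays side by side by number and genes sorted by the arrays numbered 3 minus those numbered 2. Upper rows such as Snap25, Syt1 and Syp are high on both arrays numbered 3 and low on both numbered 2, while OC2-KO 1 is the lowest array of 15 genes.

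The other probe sets of the same genes gave no call either. Of the 94 probe sets, 76 passed the filter, 35 as the brightest of their gene and 41 besides, and 0 of the 76 had an unadjusted limma p under 0.05 (0.987% of all probe sets; 0.326% were also lower). The further probe sets differed by -0.67 to 0.75. Among 23 genes with several probe sets tested, 13 had values on both sides of 0. One probe set had genotypes that did not overlap, 1456464_x_at of Syt11, with a difference of -0.39, against 3.28% of all probe sets, 1.56% lower and 1.72% higher.

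Several of the dimmer probe sets were much lower on both arrays numbered 3. A level more than 1 lower on the log2 scale on array 3 than the mean of arrays 1 and 2, in both genotypes, was seen in 8 of the 76, which is 10.5% of the members' probe sets against 3.76% of all probe sets. All 8 were among the 41 that were not the brightest, but the brightest was chosen by its mean over all 6 arrays, so that nothing is read from this split. They belonged to 6 genes, Sh3gl2, Stx3, Syt1, Syt11, Napb and Rab3c. For Stx3, 1426151_a_at had 10.98, 10.47 and 7.67 in OC2-WT against 11.04, 10.06 and 7.72 in OC2-KO. For Sh3gl2, 1449228_at had 10.71, 10.05 and 6.73 in OC2-WT against 9.99, 9.84 and 6.80 in OC2-KO. In both, array 3 was far below the other arrays of its genotype, in OC2-WT and OC2-KO alike. The 3′ to 5′ readings of Actb given above were high on the same arrays. The place of each probe set in its transcript was not used here, and the part of RNA quality was not tested.

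**Figure D4:**
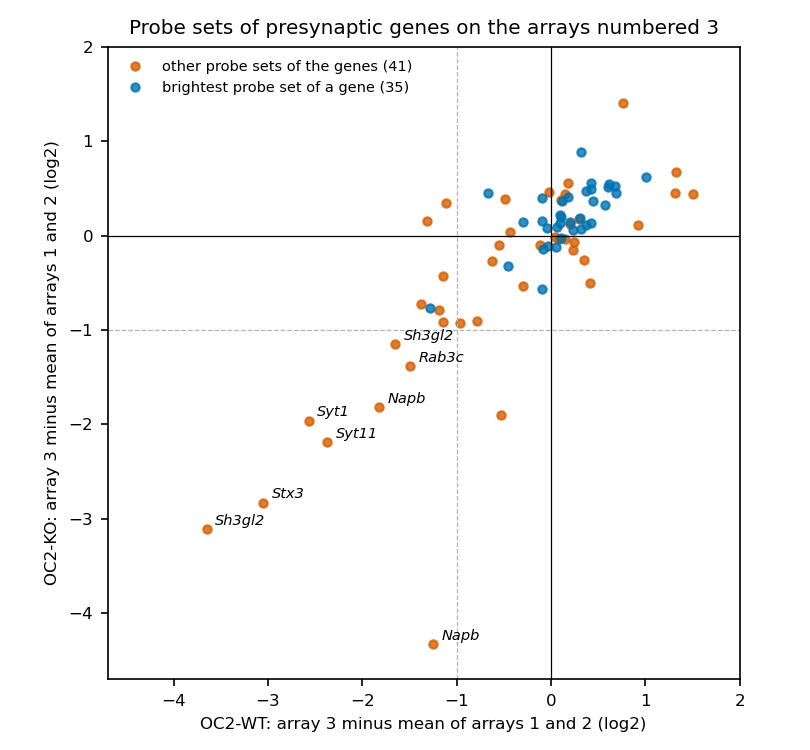
Log2 intensity on array 3 minus the mean of arrays 1 and 2, in OC2-WT (horizontal axis) and OC2-KO (vertical axis), for the 76 tested probe sets of presynaptic genes; blue points are the brightest probe set of a gene (35) and orange points the others (41), and dashed lines mark -1. The 8 named points in the lower left were below -1 in both genotypes, as far as -3.65 in OC2-WT (Sh3gl2) and -4.33 in OC2-KO (Napb), and all are orange, as the choice of the brightest probe set favours.

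Other genes of vesicle release were read from a further list of 48, of which 38 were tested. In OC2-KO 17 were lower and 21 higher, with a median of 0.023, and 0 passed adjustment. Syt5 was the one with an unadjusted limma p under 0.05 (0.985% of all genes), and it was lower in OC2-KO (0.253% of all genes). It had log2 intensities of 8.12, 7.81 and 7.81 in OC2-WT against 7.56, 7.08 and 7.24 in OC2-KO. These did not overlap (3.78% of all genes, 1.83% lower). The difference was -0.62 ± 0.23, with an interval from -1.16 to -0.083, an unadjusted p of 0.0293 and an adjusted p of 1.00. The next by p were Syt13 at -0.38, Sh3gl3, an endophilin, at -0.36, the release factor Cadps2 at 0.34, Snap23, a SNAP-25 relative outside neurons, at -0.38, and Cadps at -0.23.

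Genes of the ribbon and its active zone were balanced too, with 4 of 8 tested lower and a median of -0.028. Bsn and Pclo, the large scaffold proteins of conventional and ribbon active zones, differed by -0.35 and -0.28. Both were lower in 3 of 3 numbers, as was Cabp4 at -0.13, whereas Ctbp2, at 0.11, was higher in 3 of 3. Cplx4, the second ribbon complexin, was read with the further list of release genes. It differed by 0.19 and was higher in 3 of 3 numbers. None of the ribbon list had an unadjusted limma p under 0.05, and neither the ribbon nor the conventional list held a member that passed adjustment.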

How the data were processed

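The authors amplified and biotin-labelled retinal RNA, hybridised it, and used MAS5 (version not given in the sources used here) for background adjustment and normalization. They deposited linear intensities for 45101 probe sets. Each array had a 2% trimmed mean of 500, and a shift common to all genes is therefore hidden. Groups came from the genotype in the sample titles. The deposited tables of the study's own comparisons were not used, and no 2 arrays held identical values.

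Intensities were taken to log2 here, 64 control probe sets were left out, and probe sets with a mean above 7 in either genotype were kept, 21176 in all. The annotation gave 34945 probe sets a single symbol, 932 several and 9160 none, and only the first were named. Of these, 34741 matched a RefSeq gene table of GRCm38.p6, which changed 0 symbols. OC2-KO was compared with OC2-WT with limma 3.58.1 (lmFit, eBayes; R 4.3.3), two-sided, without a block (4 residual degrees of freedom), with Benjamini-Hochberg adjustment over all probe sets kept and a threshold of 0.05. The fit was tested on simulated data. Intervals are limma's at 95%. A gene's brightest probe set stands for it, and scores over several genes got no p.

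The 36 members and all lists were chosen with earlier results of these data known. The naming rule asked for values by array for the 5 isoforms and for members past an unadjusted p of 0.05 or without overlap, and for up to 6 genes of the further list by p. Since 0 members met the second part, the other members shown by array were chosen after their values were seen.

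Whether array numbers pair the arrays was checked before fits were compared. Once genotype means were removed, arrays sharing a number correlated at 0.576 (number 1), 0.59 (number 2) and 0.585 (number 3), and arrays with different numbers at -0.429 to -0.135, so they count as pairs. No label ties a number to a litter. The alternatives dropped the filter or set it at 8, used quantile or median scaling, modelled an intensity trend or a replicate block, applied the methods' test, set a floor at 6, chose probe sets otherwise, or left out single arrays or pair 3. Leaving out pair 1 was added after seeing the data.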

Additional observations from a re-analysis of the deposited data

How the results depend on the processing

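Under the main fit and all 18 alternatives 0 members passed adjustment, with a smallest adjusted p of 0.999. Of 624 values of single members under alternatives 550 kept their direction and 74 reversed, and 12 members never reversed. The count of members at an unadjusted p under 0.05 was 0 in the main fit. It was 1 without the filter (Sv2c, 2.25% of all genes under that setting) and 2 without pair 1 (Syt3 and Syt2, 0.875%). It was also 1 when probe sets were averaged per gene (Syt2, 1.58%). Syt2 had a single probe set past the filter, so its difference stayed at 0.74 there and only its limma p moved, from 0.0603 to 0.0444. With the array number as a replicate block, which pairs the arrays and leaves 2 residual degrees of freedom, this count was 2 (Syt3 and Syt2). That was 5.71% against 3.53% of all genes, and the block changed no other call. The count without overlap, also 0, was 2 under quantile normalization (Syn1 and Syn3; 3.77% of all genes), 1 under median centring (Syn3; 3.74%), 2 without pair 3 (Stx1a and Syn2; 18.3%) and 5 without pair 1 (Nsf, Syn3, Synj1 and Syt3 lower, Syt2 higher; 20.6%). Without single arrays the first count ran from 0 to 2 (0.995% to 2.08% of all genes) and the second from 0 to 6 (9.04% to 16.5%). The median over the members ran from -0.13 to 0.015 and the ribbon-type minus amacrine-type contrast from 0.13 to 0.51. Fewer arrays overlap less often by construction, and the cause of the other changes was not tested. The contrast could not be computed from plain-suffix probe sets, since Syn1 has none and that of Stx1a is below the filter.

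Single members changed sign, among them Stx3, Unc13b and Syt11, whose main differences were 0.24, -0.24 and -0.19. Under quantile normalization Snap25 was -0.13, Syt1 -0.037 and Napa -0.01, and under median centring Napa was -0.0078. Without pair 3 Nsf was 0.054, Napb 0.027, Napa -0.033, Cplx2 0.036 and Dnm1 0.0066. Without pair 1 Syt4 was 0.14, Sh3gl2 -0.00035, Sv2a 0.079, Slc17a7 0.034, Syt1 -0.0095, Rph3a 0.028, Rims1 0.067, Napa -0.016 and Syn2 0.10. With probe sets averaged per gene Syt4 was 0.15, Sh3gl2 -0.053, Vamp2 -0.18, Napb 0.14, Stx3 -0.004, Syngr1 0.025, Napa -0.086 and Cplx2 0.016, and with plain-suffix probe sets Stx3 was -0.16 and Cplx2 0.10. Leaving out single arrays gave ranges across 0 for Cplx1 (-0.14 to 0.015), Cplx2 (-0.23 to 0.11), Cplx3 (-0.15 to 0.034), Dnm1 (-0.24 to 0.11), Napa (-0.16 to 0.13), Napb (-0.12 to 0.065), Nsf (-0.049 to 0.038), Rab3a (-0.25 to 0.0085), Rims1 (-0.15 to 0.11), Rph3a (-0.32 to 0.19), Sh3gl2 (-0.009 to 0.11), Slc17a7 (-0.13 to 0.088), Snap25 (-0.14 to 0.28), Sv2a (-0.19 to 0.13), Syn2 (-0.18 to 0.019), Syngr1 (-0.12 to 0.047), Syp (-0.15 to 0.24), Syt1 (-0.013 to 0.38), Syt11 (-0.35 to 0.062), Syt4 (-0.46 to 0.22), Unc13b (-0.56 to 0.10) and Vamp2 (-0.11 to 0.21).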
